A study of Saccharomyces cerevisiae SK1 with 28 samples.

Results

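DTT-treated and untreated budding yeast cells were compared by ChIP-seq, which lists the places in the genome where an immunoprecipitated protein was found. The comparison rests on 4 ChIP libraries of 28 libraries in the series, 2 from vegetative cells with DTT and 2 from vegetative cells without it. All of them came from the wild-type (WT) SK1 strain, a laboratory strain that sporulates well, and the labels name no other genotype or tag. Cells grew in YPD, a rich glucose medium, at 30 °C, were taken in exponential growth at an OD600 of 0.6 and were fixed in 1% formaldehyde for 15 min. The 4 input libraries of the same states were not analysed here. Which protein was immunoprecipitated, how much DTT the cells received and for how long are not stated in the labels or files.

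DTT breaks disulfide bonds, so proteins entering the endoplasmic reticulum (ER) cannot fold properly. Yeast answers misfolded ER proteins with the unfolded protein response (UPR), in which the sensor Ire1 splices the mRNA of the transcription factor Hac1. Spliced Hac1 is known to act on promoters of genes for ER chaperones, disulfide bond formation, glycosylation and secretory traffic. The design text of the series names growth with an outside block of folding beside undisturbed growth, and the comparison asks which promoters are listed in each.

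Each deposited row paired a peak summit, the base where a peak is highest, with a promoter window of 600 bp and its gene. Genes with a summit in their window in both libraries of a state were called in that state. Gained genes were called with DTT and listed in neither vegetative library, kept genes were called in both states, and lost genes were called in vegetative cells and listed in neither DTT library. These names describe listing only, since no label or header says how the deposited summits were chosen, and an unlisted gene is not thereby unbound. Distances are bp upstream of the gene start, taken as the base next to the window.

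The DTT libraries listed 296 and 245 summits, against 18 and 13 summits in the vegetative libraries. They covered 360 and 300 genes with DTT, a mean of 330 ± 42.4, against 23 and 17 genes in vegetative cells, a mean of 20 ± 4.24 (SD, n = 2 each). In all, 378 genes (6.28% of the 6021 protein-coding genes) were listed in at least 1 DTT library and 25 (0.415%) in at least 1 vegetative library. The groups did not overlap, but with 2 libraries against 2 an exact two-sided permutation test cannot go below its value here of p = 0.333. The highest peak number among the listed summits, which shows how far the authors' numbering of peaks ran at the least, was 1897 and 1950 with DTT and 1834 and 1979 in vegetative cells. No test is drawn from those maxima. Peak numbers rise along the genome, and the last listed vegetative summits lay on chromosome XV, against chromosome XVI with DTT. The maxima were thus read at different places and do not compare the numbering of the states. At TPO4, near the last vegetative summits, the DTT numbers were 1715 and 1755, below the vegetative maxima of 1834 and 1979. Read depth is unknown from these tables, and its part in the length of the lists was not tested.

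**Figure D1:**
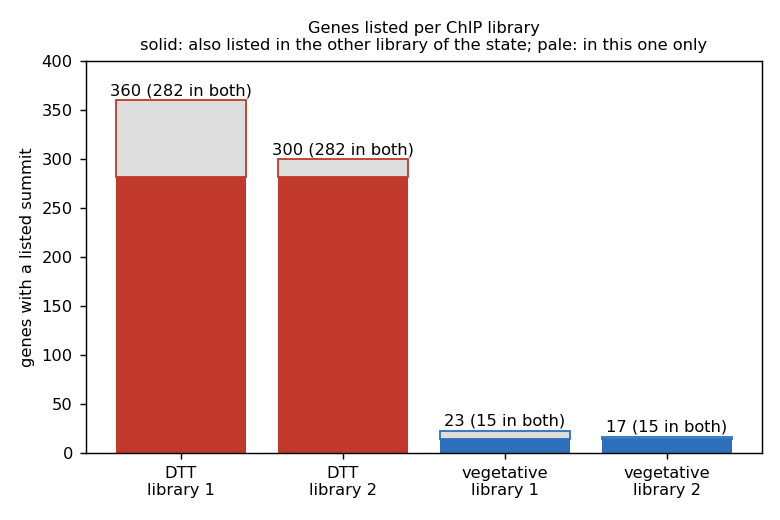
Genes with a listed summit in each ChIP library, split into genes that the other library of the same state also listed (solid) and genes listed in that library only (pale). The DTT libraries list 360 and 300 genes, of which 282 are in both, and the vegetative libraries list 23 and 17, of which 15 are in both.

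With DTT, 282 genes were called, 4.68% of the 6021 protein-coding genes, and in vegetative cells 15 were, 0.249%. Gained genes numbered 272 (4.52% of protein-coding genes), kept genes 8 (0.133%) and lost genes 5 (0.083%). The 8 kept genes made up 2.84% of the genes called with DTT and 53.3% of those called in vegetative cells. Another 2 genes were called with DTT and listed in 1 vegetative library, and 2 were called in vegetative cells and listed in 1 DTT library. The vegetative count rests on its shorter list: without vegetative library 2 it is 23 genes.

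The count of gained genes follows the length of the DTT lists. When each DTT list was cut to its best-scoring 18 and 13 summits, the lengths of the vegetative lists, 10 genes were called with DTT, 8 of them gained and 2 kept, and 12 were lost. The best-ranked DTT summits were thus mostly at other promoters than the vegetative ones even at equal list length. Of the 20 best summits of DTT library 1, 1 had a summit of vegetative library 1 within 100 bp, and of the 20 best of DTT library 2, 2 had one in vegetative library 2.

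The kept genes were PDI1 with GLK1, KAR2, PSA1, TAL1, DFR1, and FSF1 with YTM1, the paired names sharing a summit between divergent genes. Pdi1 is the ER protein disulfide isomerase, Kar2 the ER Hsp70 chaperone, and Psa1 makes GDP-mannose, the sugar donor of glycosylation. GLK1 encodes glucokinase, TAL1 transaldolase, DFR1 dihydrofolate reductase and YTM1 a factor of large ribosomal subunit assembly. Their places within the lists are given side by side, since ranks in lists of such different length show no change.

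The shared summit of PDI1 and GLK1 ranked 5 of 296 and 4 of 245 with DTT, against 13 of 18 and 10 of 13 in vegetative cells. KAR2 ranked 10 and 33 with DTT, against 2 and 2 in vegetative cells. Both vegetative summits lay nearer to TAD2, so KAR2 is not kept when a summit counts only for its nearest gene. PSA1 ranked 36 and 14 with DTT, against 1 and 1 in vegetative cells. The shared PDI1 and GLK1 summit stood near the top of both DTT lists and in the lower part of both vegetative ones. PSA1 led the vegetative lists. Ranks in lists of such different length show no change between the states.

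The summit of FSF1 and YTM1 ranked 246 and 164 with DTT, against 5 and 5 in vegetative cells. DFR1 ranked 119 and 90 with DTT, against 4 and 3 in vegetative cells. TAL1 ranked 77 and 70 with DTT, against 9 and 6 in vegetative cells. With DTT, FSF1 and YTM1 stood below the median of all called genes, 42.7% of the way down the lists, and DFR1 and TAL1 stood above it.

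Summits of 6 of the 8 kept genes lay at the same place in both states, within 25 bp on the mean of 2 libraries and closer than the wider of the gaps between replicates. PDI1 summits lay 263 and 262 bp upstream with DTT and 246 and 270 bp upstream in vegetative cells. PSA1 summits lay 479 and 490 bp upstream with DTT and 495 and 493 bp upstream in vegetative cells. DFR1 summits lay 104 and 136 bp upstream with DTT and 151 and 136 bp upstream in vegetative cells. In each of these genes the states overlapped or nearly touched.

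KAR2 and TAL1 were the exceptions. At KAR2 (SK1_10G01690, window 391422 to 392021 of chromosome X in the deposited SK1 coordinates) the summits lay 510 and 390 bp upstream with DTT and 168 and 167 bp upstream in vegetative cells. The mean positions differed by 282.5 bp, more than the 120 bp between the DTT libraries, which was the widest gap between replicates among all genes called with DTT. TAD2, the divergent neighbour of KAR2, starts 325 bp away, and the DTT summits lay 184 and 64 bp past its start, inside TAD2. At TAL1 the summits lay 365 and 373 bp upstream with DTT and 495 and 486 bp upstream in vegetative cells. The mean difference of -121.5 bp, nearer to the gene with DTT, was larger than the 9 bp between replicates.

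**Figure D2:**
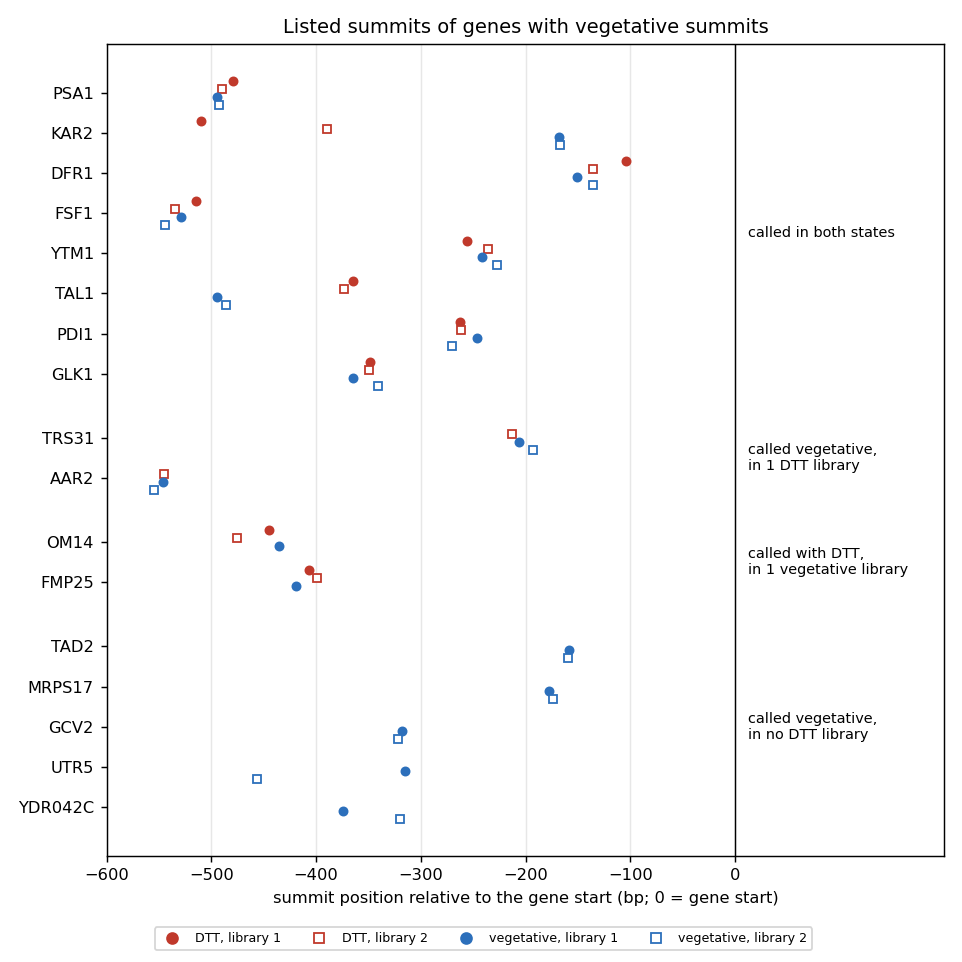
Position of each listed summit relative to the gene start (bp, upstream to the left) for the 17 genes called in vegetative cells or listed in a vegetative library and called with DTT. Summits of kept genes fall together in both states except at KAR2, 510 and 390 bp upstream with DTT against 168 and 167 bp upstream in vegetative cells, and at TAL1.

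HAC1, the gene of the UPR transcription factor, was a gained gene (SK1_06G00360, window 95498 to 96097 of chromosome VI). It was listed 229 and 226 bp upstream with DTT, at ranks 50 of 296 and 66 of 245, and in neither vegetative library. Its divergent neighbour RIM15, a protein kinase gene of nutrient signalling, shared the summit and lay farther from it. Of the 4 genes on the UPR signalling list, HAC1 was the 1 called. IRE1, which encodes the sensor, was listed in none of the 4 libraries.

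The lost genes were TAD2, MRPS17 with GCV2, UTR5 and YDR042C. MRPS17 encodes a protein of the mitochondrial ribosome and GCV2 a subunit of glycine decarboxylase. The nearest listed DTT summit to theirs was that of SSO2 and ADD37, at least 9094 bp away in every pair of libraries. The shared vegetative summit ranked 3 of 18 and 8 of 13. YDR042C ranked 11 of 18 and 11 of 13, with the nearest DTT summit 9307 bp away or more. These were promoters with no listed DTT summit anywhere near them.

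TAD2 and UTR5 were lost in another way, since a DTT summit was listed at their divergent neighbours. The vegetative summit of TAD2 is that of KAR2, 158 and 159 bp upstream of TAD2. UTR5 lies beside HYP2, which encodes the translation factor eIF5A, with 130 bp between the starts of the 2 genes. The vegetative UTR5 summits lay 315 and 456 bp upstream of UTR5, which is 184 and 325 bp past the start of HYP2 and inside that gene. The DTT summits lay on the opposite side, 425 and 421 bp upstream of HYP2 and 294 and 290 bp past the start of UTR5. HYP2 ranked 23 and 11 among the DTT summits and was listed in neither vegetative library. With library 1 of each state alone, 11 genes were lost, against 6 with library 2 of each state alone.

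Between kept and lost stood 4 genes. TRS31, a gene of the TRAPP complex of vesicle traffic, had vegetative summits 206 and 193 bp upstream and a DTT summit 213 bp upstream in library 2. AAR2, a gene of splicing particle assembly, had vegetative summits 546 and 555 bp upstream and a DTT summit 545 bp upstream in library 2. Both DTT summits were near the foot of their list, at ranks 236 and 225 of 245. The mitochondrial genes OM14 and FMP25 were called with DTT, at 445 and 475 bp and at 407 and 399 bp upstream, and were the last of vegetative library 1, at ranks 17 and 18 of 18.

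DTT library 2 shared more summits with vegetative cells than DTT library 1 did. Within 100 bp it had a summit at 10 of the 18 places of vegetative library 1, against 7 for DTT library 1, and at 7 of the 13 places of vegetative library 2, against 4. CUE5, YDR065W, YGL101W and YOR223W were listed in 1 vegetative library and in DTT library 2, and TPM1 with NIS1 in library 1 of both states, where their summits fell on the same base. NAT2 and CTR2 were the genes of 1 vegetative library listed in neither DTT library. With scores of at least 500, 4 genes were kept. PDI1 and GLK1, whose shared summit scored 463.889 in vegetative library 1, were not among them.

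Among the gained genes, ICT1 with ERG27, IRC4, ERO1, PBI2, TSA1, ROX1, APQ12, SIL1 with GAS5, SNQ2 and YPR036W-A had the best mean ranks. They span several roles: ERO1 and SIL1 act in ER folding, ICT1 and ERG27 in phospholipid and ergosterol synthesis, and GAS5 in building cell wall glucan. TSA1 encodes a thioredoxin peroxidase, PBI2 an inhibitor of a vacuolar protease, SNQ2 a multidrug transporter, ROX1 the repressor of hypoxic genes and APQ12 a membrane protein of the nuclear envelope and ER. The summit between ICT1 and ERG27 ranked 1 of 296 and 2 of 245, 505 and 509 bp upstream of ICT1 and 381 and 377 bp upstream of ERG27. IRC4 ranked 2 and 1, with summits 497 and 499 bp upstream. PBI2 ranked 6 and 10, with summits 273 and 277 bp upstream, and TSA1 ranked 9 and 9, with summits 231 and 236 bp upstream. None of these genes had a summit in either vegetative library. APQ12 ranked 4 and 18, with summits 540 and 544 bp upstream, and ROX1 ranked 15 and 5, with summits 544 and 545 bp upstream. SNQ2 ranked 19 and 8 and YPR036W-A ranked 21 and 7. YPR036W-A had summits 387 and 375 bp upstream. The gap between the positions in the 2 libraries had a median of 5 bp over the 272 gained genes and was at most 81 bp.

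**Figure D3:**
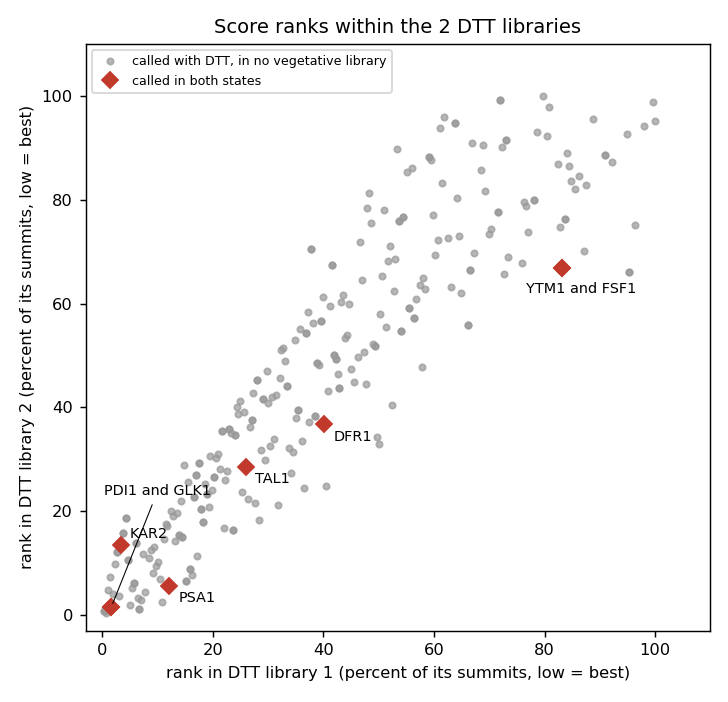
Rank of each called gene by the authors' score in DTT library 1 (x axis) and DTT library 2 (y axis), as a percentage of the summits in that list, where low is best. Grey points are the 272 gained genes and red diamonds the 8 kept genes, which run from PDI1 and GLK1 at ranks 5 and 4 to YTM1 and FSF1 at ranks 246 and 164.

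Ranks of the 282 called genes in the 2 DTT libraries had a Spearman correlation of 0.934, and those of the 15 called genes in the 2 vegetative libraries had 0.802. These describe genes of 2 libraries, genes that share a summit share a rank, and no test is drawn from them. Of the 100 best summits of DTT library 1, 98 had a summit of library 2 within 100 bp, against 229 of all 296. Genes listed in 1 DTT library and no vegetative one numbered 76 in library 1 and 12 in library 2, at a median of 81.6% and 89.2% down their list, so most stood near the foot.

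At the edge of the call rule, the lowest called genes were UBX6, PRY1, CTT1 and AMD2, at ranks 281, 290, 296 and 295 of 296 in library 1 and 227, 231, 233 and 242 of 245 in library 2. Just outside it, AMN1 ranked 12 of 296 in DTT library 1 and was unlisted in library 2, and GPD2 ranked 67 of 245 in library 2 and was unlisted in library 1. Their summits lay 596 and 598 bp upstream, 4 and 2 bp inside the far edge of the window. The next best genes of that kind, ADE16 at rank 134 in library 1 and QCR6 at rank 129 in library 2, stood much lower.

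Genes of ER protein folding were called with DTT at a far higher share than protein-coding genes at large. Of the Hsp70 chaperone KAR2 and its partners, 5 of 9 were called with DTT (55.6%, against 4.68% of protein-coding genes), and 1 of 9 in vegetative cells. Of the genes for oxidative folding, which put disulfide bonds into proteins, 4 of 8 were called with DTT (50.0%), and 1 of 8 in vegetative cells. In vegetative cells 0.249% of protein-coding genes were called, so 0 called genes in a list is near that background. The lists were drawn up with earlier results of these data known, and no list was tested.

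SIL1, whose product recharges Kar2 with ATP, was the best ranked of the Kar2 partners with DTT, at ranks 20 and 3, 87 and 95 bp upstream. LHS1 encodes another nucleotide exchange factor of Kar2 and lay at ranks 159 and 186, 85 and 63 bp upstream. The J-domain protein genes JEM1 and ERJ5 lay 145 and 138 bp and 36 and 38 bp upstream. SCJ1 and SEC63, also J-domain protein genes, were listed in DTT library 1 only, 71 and 88 bp upstream. Leaving out KAR2 itself, every one of these summits lay within 150 bp of the gene start.

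ERO1, whose product oxidises Pdi1, ranked 3 and 12, with summits 140 and 136 bp upstream (SK1_13G00030, window 7765 to 8364 of chromosome XIII). EUG1 and MPD1 encode relatives of Pdi1. EUG1 ranked 58 and 75, with summits 150 and 152 bp upstream, and MPD1 ranked 175 and 216, with summits 93 and 104 bp upstream. The called genes of this list stood at a median of 14% down the DTT lists, against 42.7% for all called genes.

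Genes of protein mannosylation were spread over the DTT lists, with SEC53 and PSA1 near the head. SEC53 makes mannose-1-phosphate, PSA1 the GDP-mannose, and DPM1 the lipid-linked mannose of the ER. SEC53 ranked 32 and 6 with summits 150 and 160 bp upstream, and DPM1 ranked 97 and 126 with summits 74 and 73 bp upstream. ALG14, for an early step of the N-glycan precursor, ranked 167 and 140 with summits 162 and 158 bp upstream, in the lower part of the lists. With these, 4 of 30 genes of GDP-mannose and N-glycosylation were called with DTT (13.3%) and 1 of 30 in vegetative cells, PSA1.

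PMT1 and PMT2, whose products form the main O-mannosyltransferase complex of the ER, were 2 of 7 genes called on their list (28.6%). In vegetative cells 0 of 7 were called, near the 0.249% of protein-coding genes. PMT1 ranked 17 and 15 with summits 133 and 132 bp upstream, and PMT2 ranked 22 and 29 with summits 208 and 209 bp upstream. MCD4, for the ethanolamine phosphate of GPI anchors, ranked 7 and 24, with summits 146 and 143 bp upstream. It was the 1 called of 20 GPI genes, a share of 5% that is near the 4.68% of protein-coding genes.

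Entry into and exit from the ER had few called genes. The translocon genes SEC61 and SEC62 were 2 of 23 called with DTT (8.70%), with summits 313 and 313 bp and 65 and 83 bp upstream. The vesicle coat gene SEC24 and the p24 cargo protein gene ERP2 were 2 of 39 genes of ER to Golgi traffic (5.13%), 234 and 242 bp and 180 and 184 bp upstream. ASI1, of a nuclear membrane ubiquitin ligase, was 1 of 18 genes of ER-associated degradation (5.56%). The shares for traffic and degradation were near the 4.68% of protein-coding genes. With DTT library 1 alone they were not: 5 of 39 traffic genes (12.8%) and 3 of 18 degradation genes (16.7%) were listed, against 5.98% of protein-coding genes.

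**Figure D4:**
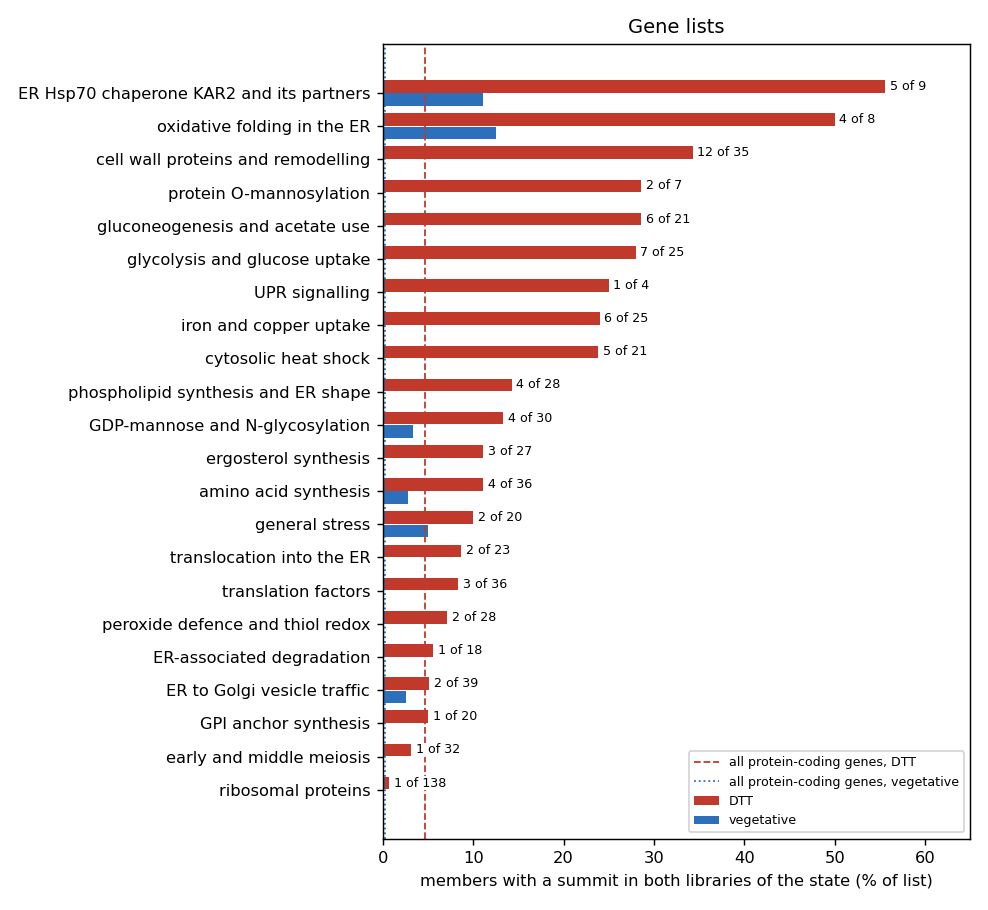
Share of each gene list with a summit in both libraries of a state, with DTT (red) and in vegetative cells (blue), with the numbers called with DTT beside the bars. Dashed and dotted lines mark the share of all protein-coding genes, 4.68% with DTT and 0.249% in vegetative cells. KAR2 and its partners have the highest share and ribosomal proteins the lowest.

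Genes of the cell surface and of sugar metabolism were also called with DTT at several times the 4.68% of protein-coding genes. Cell wall genes had 12 of 35 called with DTT (34.3%), glycolysis and glucose uptake 7 of 25 (28.0%), and gluconeogenesis and acetate use 6 of 21 (28.6%). In vegetative cells 0 of the 81 genes of these 3 lists were called, near the vegetative background of 0.249% of protein-coding genes.

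GAS5, CCW12, CRH1, CWP1, SCW10, FKS1, CIS3 and GAS1 were the best ranked of the cell wall genes. GAS5 and GAS1 elongate wall glucan, FKS1 encodes a glucan synthase subunit, CRH1 links chitin to glucan, and CCW12, CWP1 and CIS3 encode wall proteins. GAS5 shares its summit with SIL1, which lies nearer. CCW12 ranked 30 and 25 with summits 514 and 509 bp upstream, and FKS1 ranked 141 and 109 with summits 543 and 551 bp upstream.

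The called glycolysis and transport genes were PGK1, CDC19, FBA1, PDC1, HXT3, HXT2 and PGI1, which include the kinases that make ATP in glycolysis and glucose transporters. PGK1 ranked 18 and 34 with summits 542 and 540 bp upstream. It shares that summit with ADP1, which lies nearer, at 331 and 333 bp. CDC19 ranked 40 and 48 with summits 519 and 517 bp upstream, and PDC1 lay 537 and 537 bp upstream. ALD6, ACO1, PCK1, ACS2, MLS1 and MDH2 were the called genes of acetate use. MLS1 shares its summit with DCP2, which lies nearer. ALD6, for making acetate, ranked 67 and 68 with summits 518 and 497 bp upstream, and PCK1, the first step of gluconeogenesis, ranked 126 and 114 with summits 551 and 548 bp upstream.

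Metal uptake genes had 6 of 25 called with DTT (24.0%) and 0 of 25 in vegetative cells, near the vegetative background of 0.249%. They were both parts of the high-affinity iron transporter, FET3 and FTR1, the metal reductase genes FRE1 and FRE4, and the copper transporter genes CTR1 and CTR3. FRE4 ranked 29 and 23, CTR1 ranked 42 and 54, and FTR1 ranked 57 and 51. Lower in the lists, FRE1 ranked 83 and 111, CTR3 ranked 98 and 120 and FET3 ranked 196 and 137. FET3 shares its summit with AAC1, which lies nearer, at 195 and 201 bp against 371 and 365 bp. Summits of these 6 genes were spread over the window, from 544 and 523 bp upstream at FRE4 and 387 and 378 bp at CTR1 to 190 and 194 bp at CTR3. FTR1 summits lay 110 and 191 bp upstream, the widest gap between replicates among gained genes. CTR2, for the vacuolar copper transporter, was listed in vegetative library 2 only.

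Lipid and regulator genes were fewer. Phospholipid synthesis and ER shape had 4 of 28 called with DTT (14.3%), namely ICT1, OLE1, SCS3 and INO2, where OLE1 encodes the fatty acid desaturase and INO2 an activator of phospholipid genes. OLE1 lay 532 and 529 bp upstream, SCS3 106 and 105 bp and INO2 163 and 172 bp. ICT1 and OLE1 share their summits with ERG27 and SDS23, which lie nearer. With each summit counted only for its nearest gene, 2 of 28 were called (7.14%, against 3.75% of protein-coding genes). Ergosterol synthesis had 3 of 27 called (11.1%), ERG27, ERG25 and ERG3. Neither list had a called vegetative gene, near the vegetative background of 0.249%.

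Cytosolic heat shock genes had 5 of 21 called with DTT (23.8%) and 0 of 21 in vegetative cells, near the vegetative background of 0.249%. They were the Hsp70 genes SSA1 and SSA2, the exchange factor gene SSE1, the polyubiquitin gene UBI4 and BTN2, whose product gathers misfolded proteins. SSA1 ranked highest, at ranks 60 and 65, and shares its summit with EFB1. The list stood at a median of 63.5% down the DTT lists, lower than the 42.7% of all called genes, and with scores of at least 500 it had 3 called.

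Other lists had lower shares, of which amino acid synthesis and general stress were still over 2 times the background of 4.68%. Amino acid synthesis had 4 of 36 called with DTT (11.1%), HOM3, LYS20, HIS1 and LEU2, and in vegetative cells 1, GCV2. General stress had GLK1 and the catalase gene CTT1, 2 of 20, peroxide defence TSA1 and CTT1, 2 of 28 (7.14%), and translation factors HYP2, EFB1 and GCD6, 3 of 36 (8.33%). Meiosis had CRR1, 1 of 32 (3.13%), which shares its summit with FRE1. Ribosomal protein genes stood below the background, with 1 of 138 called (0.725%), RPS24A, and with 4 of 138 (2.9%, against 5.98%) when DTT library 1 was taken alone.

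Summit positions as a whole overlapped between the states. The median distance upstream was 340 and 354.5 bp in the DTT libraries, against 365 and 320 bp in the vegetative ones (exact two-sided permutation test, p = 1). With scores of at least 500 the medians no longer overlapped, at a difference of 70.75 bp (exact two-sided permutation test, p = 0.333). From the lower to the upper quartile, the genes' distances ran from 233.75 to 459.25 bp and from 249 to 475 bp in the DTT libraries, against 211 to 465 bp and 193 to 486 bp in the vegetative ones. The gained genes with the nearest summits were PEX18 at 34 and 37 bp, ERJ5 at 36 and 38 bp, CRN1 at 50 and 34 bp, DPM1, and SEC62 tied with LHS1. Those with the farthest were SNQ2 at 587 and 574 bp, YJL045W at 577 and 582 bp, GIP3, CDC42 and HXT5.

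Within the DTT lists, called genes of the secretory pathway had summits nearer to the gene start, and those of glycolysis, gluconeogenesis and the cell wall farther from it. The 9 lists of ER folding, UPR signalling, degradation, translocation, glycosylation, GPI anchors and traffic were pooled after these positions were seen, and so were the other 3 lists. Their 22 called genes had a median distance of 153 bp, and 14 of 22 (63.6%) lay within 200 bp of the gene start. The other 260 called genes had a median of 368.5 bp, and 29 of 260 (11.2%) lay within 200 bp. Another 10 secretory genes listed in 1 DTT library had a median of 99 bp.

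The 25 called genes of glycolysis, gluconeogenesis and the cell wall had a median of 477 bp, with 0 of 25 within 200 bp and 19 of 25 over 400 bp. Another 4 genes of these lists, listed in 1 DTT library, had a median of 281.5 bp, with 1 over 400 bp. Other lists of metabolism had medians near the 354.75 bp of all called genes. These were 351 bp for amino acid synthesis, 337.25 bp for phospholipids and 379 bp for ergosterol. The 4 phospholipid genes lay well to either side of their median, from 105.5 to 530.5 bp. The nearest of the 25 glycolysis, gluconeogenesis and cell wall genes, CIS3, lay 272 and 283 bp upstream. Every one of the 22 secretory genes was the nearest listed gene to its summit in both DTT libraries. Of the 25 genes of glycolysis, gluconeogenesis and the cell wall, 21 stayed when each summit counted only for its nearest gene. Those 21 had a median of 450.5 bp, with 15 over 400 bp. KAR2, at 510 and 390 bp, and PSA1, at 479 and 490 bp, were the secretory genes with the farthest summits, and both were also called in vegetative cells. These are counts over genes of 2 libraries, with no test.

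**Figure D5:**
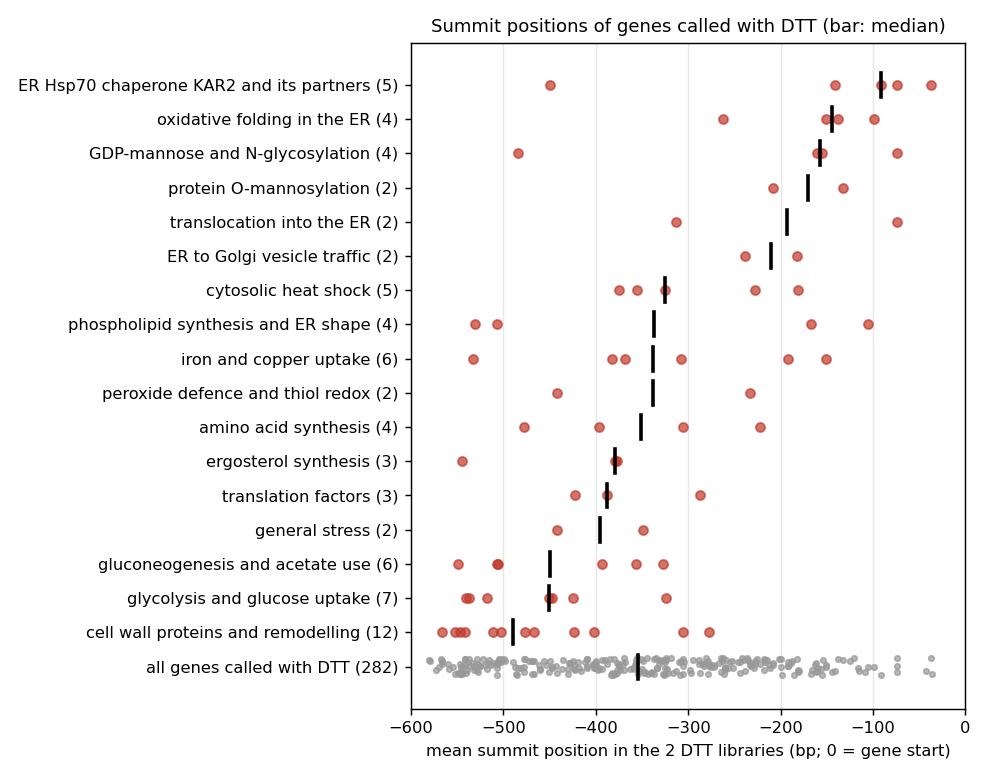
Mean summit position in the 2 DTT libraries relative to the gene start (bp, upstream to the left) for called genes of each list with at least 2 of them, with the median as a bar and all 282 called genes below in grey. KAR2 partners, oxidative folding and glycosylation genes lie nearest to the gene start, and glycolysis, gluconeogenesis and cell wall genes lie farthest.

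Shared promoters account for part of the gene counts. In the DTT libraries 23.3% and 24.1% of summits lay in the windows of 2 divergent genes, against 27.8% and 30.8% in the vegetative libraries. Among the 272 gained genes, 109 shared a summit, and with each summit counted only for its nearest gene 219 genes were gained and 5 kept. In the R64 gene order 156 of 272 gained genes (57.4%) had a divergent upstream neighbour, against 51.7% of 5992 protein-coding genes. Of those 156 neighbours, 102 were called with DTT as well and 53 were listed in no DTT library, so a gained gene beside a divergent one did not always bring its neighbour into the list.

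Genes called with DTT came from all 16 nuclear chromosomes. The lowest share was 5 of 293 genes on chromosome VIII (1.71%) and the highest 8 of 129 on chromosome VI (6.20%), among them HAC1, ERJ5 and SEC53.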

How the data were processed

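Each ChIP library had 1 table, identified from the names that the authors gave its peaks, which match the labels. Per the submitters' processing notes, which give no roles or order, the tools included MACS2 2.2.9.1, Bowtie2 2.3.4.1, ChIPseeker 1.44.0 and SAMtools 1.7. The peak names of any table carry a single library, which means calling was done library by library. The deposited score is the authors' own value per summit, its type is not stated in the file headers, and here it ranked or filtered summits inside their own list. Positions are the deposited SK1 coordinates. No source used here gives the SK1 assembly, the control for peak calling or the read depth.

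Tables were joined with Python 3.11.15, pandas 2.3.3 and SciPy 1.17.1. Genes are those with a systematic name, 385 in the 4 tables, all matched to protein-coding genes of the RefSeq R64 table, and 5 identifiers without one were left out. Summits within 100 bp counted as the same place. Members and lists were chosen with earlier results of these data known. The calling rule was run on simulated tables without noise, which checks its code and not its performance on these lists. Named genes are all kept, lost and partly listed genes, the 12 best gained genes, up to 8 called genes of each list, and the 5 nearest and 5 farthest summits. Others, including genes listed in 1 library, AMN1 and HYP2, were named after their values were seen. Planned promoter motif counts were not run, because promoter sequences were not used here. Separate cultures are not stated for the replicates, so p-values measure only the spread between these libraries, which may be technical.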

Additional observations from a re-analysis of the deposited data

How the results depend on the processing

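Leaving out a library, or library 1 or 2 of each state, gave 272 to 348 gained, 8 to 12 kept and 5 to 11 lost genes, with 282 to 360 called with DTT and 15 to 23 in vegetative cells. Leaving out a library only loosens the rule, so that the main 272, 8 and 5 genes keep their class is fixed by construction. Calling a gene in either library gave 360 gained, 18 kept and 7 lost genes, with 25 called in vegetative cells. Counting a summit only for its nearest gene left 5 kept genes and a median DTT distance of 331 bp. Scores of at least 500 left 202 gained and 4 kept genes and, chosen after the data were seen, gave a median DTT distance of 358 bp. DTT lists cut to the vegetative length gave 10 called, 8 gained, 2 kept and 12 lost genes, by construction from fewer summits. The median distance with DTT minus that in vegetative cells was 4.75 bp and ran from -25 bp with library 1 of each state to 34.5 bp with library 2. That reversal is within the spread between libraries. With scores of at least 500 it was 70.75 bp and the states did not overlap (exact two-sided permutation test, p = 0.333, the smallest possible). The kept genes at the same place numbered 6 at 100 bp, 6 at 50 bp and 7 at 200 bp. Of 22 lists, 14 had at least 2 times the background share with DTT, and 13 or 14 did with library 1 or 2 of each state, nearest genes or scores of at least 500, with 11 to 14 lists shared. Taken as a replicate block, within both same-numbered pairs of libraries, 272 genes were gained, 8 kept and 5 lost, counts fixed in advance because this is the same rule as without the block, and so no check of it. The numbers are not stated to pair the samples, and no test with a block could be made on lists without values for unlisted genes. Over the main results, 57 values under other settings stayed within the limits used, the 3 of the block by construction, 13 moved and 1 changed sign. Read depth is unknown, so what it limits could not be measured.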

Other observations

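The gained genes were looked up in the other 10 ChIP tables of the series, from premeiotic BYTA medium and sporulation medium. Of 272 gained genes, 102 (37.5%) were listed in none of them, 73 were called at 6 h in BYTA and 11 were listed in any table other than those of 6 h in BYTA. The share of all protein-coding genes in those lists was not computed here. The counts of this paragraph thus have no background beside them and depend on how long each list is. SEC53, DPM1 and ALG14, the 3 gained genes of GDP-mannose and N-glycosylation, were in no other table. Of the gained genes of the ER folding lists, ERJ5, JEM1 and MPD1 were in no other table, while SIL1, LHS1 and EUG1 were in 1 and ERO1 in 2. Of the 6 gained genes of gluconeogenesis and acetate use, 5 were called at 6 h in BYTA, and all 6 gained metal uptake genes were listed in at least 1 other table. Cell wall genes were mixed, with 4 of 12 in no other table, CRH1, SCW10 and GAS1 among them.

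The genes unlisted with DTT differed among themselves in the same tables. MRPS17 and GCV2 were listed in 8 of the 10 other tables and TAD2 in 7, while UTR5 and YDR042C were listed in none. TPM1 and NIS1, listed in library 1 of both states, were in 8 of the 10. FSF1, YTM1, TRS31, AAR2, OM14 and FMP25, each called with DTT or in vegetative cells, were in no other table. These counts were not tested.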
